A study of Homo sapiens with 12 samples.

Results

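KRTAP10-4, KRTAP4-6 and KRTAP19-2 are 3 genes of the keratin-associated protein (KRTAP) family that carried peaks of histone H3 lysine 9 trimethylation (H3K9me3) in 293T cells. Their peaks were chosen by the gene name that the authors' annotation gave to each peak. Of 112068 peaks in both lists together, 27 carried 1 of these names, 9 of 46898 in wild-type (WT) cells and 18 of 65170 in SMARCA3 knockout (KO) cells. The genes were selected because of their peaks in these same lists, so their counts are descriptions and were not tested.

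Keratin-associated proteins form the matrix between the keratin filaments of the hair shaft, where their cysteines are cross-linked to those of hair keratins. They fall into high-sulfur, ultra-high-sulfur and high-glycine-tyrosine types, encoded by short genes without introns that lie in tandem clusters. Their known site of expression is the differentiating hair follicle. H3K9me3 is a mark of silent chromatin, found on repeats, satellites and clusters of tandemly duplicated genes.

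The 293T line is a human embryonic kidney line that carries the SV40 large T antigen. The series compared unmodified 293T cells with 293T cells labelled as knockout of SMARCA3 (current symbol HLTF), and the labels give no treatment. Each genotype has 3 H3K9me3 ChIP and 3 input libraries, but the data used here are 1 peak list per genotype, so no value has a spread between replicates and no test between genotypes was possible. How the knockout was made and whether it is 1 clone is not given in the sources used here. Peak lists measure no expression, so they check neither the knockout nor the silence of these genes. The fold enrichment and q-value of a peak are the authors' own values within 1 list. The lists were called separately, so folds of WT and KO stand side by side below without a comparison. The read depth of the libraries is unknown here.

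KRTAP10-4, of the high-sulfur type, had the most peaks of the 3 genes, 8 in WT and 12 in KO, and none of them lay over the gene itself as RefSeq gives it. The authors' annotation gives KRTAP10-4 (ENSG00000215454) a transcript of 64561 bp (ENST00000622352, plus strand, chromosome 21 from 44573724 to 44638284, hg38). The RefSeq gene covers 1643 bp at the start of that transcript, from 44573729 to 44575371. In all, 7 KRTAP10 genes start inside the long transcript, from KRTAP10-4 to KRTAP10-10, so the peaks named for KRTAP10-4 lie among its neighbours. The same stretch sits within TSPEAR, a gene for a protein with EAR repeats that runs from 44497893 to 44711572. All 20 peaks named for KRTAP10-4 were inside it.

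The 8 WT peaks named for KRTAP10-4 covered 7043 bases, with folds of 2.52 at the lowest, 3.44 at the median and 5.04 at the highest, and widths from 359 to 2536 bp. The 12 KO peaks covered 8865 bases, with folds of 2.39, 3.23 and 5.22 and widths from 279 to 3087 bp. The ranges of width overlapped between the lists. Of the WT peaks, 7 met a KO peak by at least 1 bp, and of the KO peaks 8 met a WT peak. The lone WT peak without a KO partner ran from 44620794 to 44621152, with a fold of 3.11. The 4 KO peaks without a WT partner were 287 to 389 bp wide, and they began at 44577285, 44587089, 44605496 and 44621370, with folds of 2.90, 2.68, 2.73 and 3.63. Counts also depend on how a stretch was divided, as 3 KO peaks met the single WT peak from 44632083 to 44632755. With a fold of at least 3.69, the median of both lists, 2 peaks were left at KRTAP10-4 in each list. In lists of equal length, the KO list shortened to its 46898 lowest q-values, KRTAP10-4 had 8 peaks in each.

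The peak of highest fold in both lists lay in the same place, between KRTAP10-8 and KRTAP10-9. It ran from 44622808 to 44625343 in WT, with a fold of 5.04 and a q-value of 2.0e-14, and from 44621993 to 44625079 in KO, with a fold of 5.22 and a q-value of 3.4e-23. These folds stood at percentile 91.5 of the WT list and 93.3 of the KO list. At the other end of the range, a WT peak from 44604104 to 44605077 had a fold of 2.52, at percentile 2.80 of its list. Its KO partner from 44604081 to 44605044 had a fold of 3.75, at percentile 58.9. Peaks near the top and near the bottom of the WT list thus carried the same gene name.

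The whole KRTAP10 and KRTAP12 block, with 16 genes over 159064 bp from 44538981 to 44698044, lies inside TSPEAR and was marked between its genes. WT had 20 peaks there over 21860 bases (13.7% of the block) and KO had 27 over 28440 bases (17.9%). Over all protein-coding gene bodies of the RefSeq table together, peaks covered 1.02% of the bases in WT and 1.51% in KO. The 16 gene bodies fill 16535 bp, or 10.4% of the block, and no base of them was under a peak in either list. Of the remaining 142529 bp, 15.3% were under WT peaks and 20.0% under KO peaks. KRTAP10 genes resemble one another, and how reads that match several of them were placed is not given in the sources used here, so the absence of peaks over the bodies is uncertain.

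**Figure D1:**
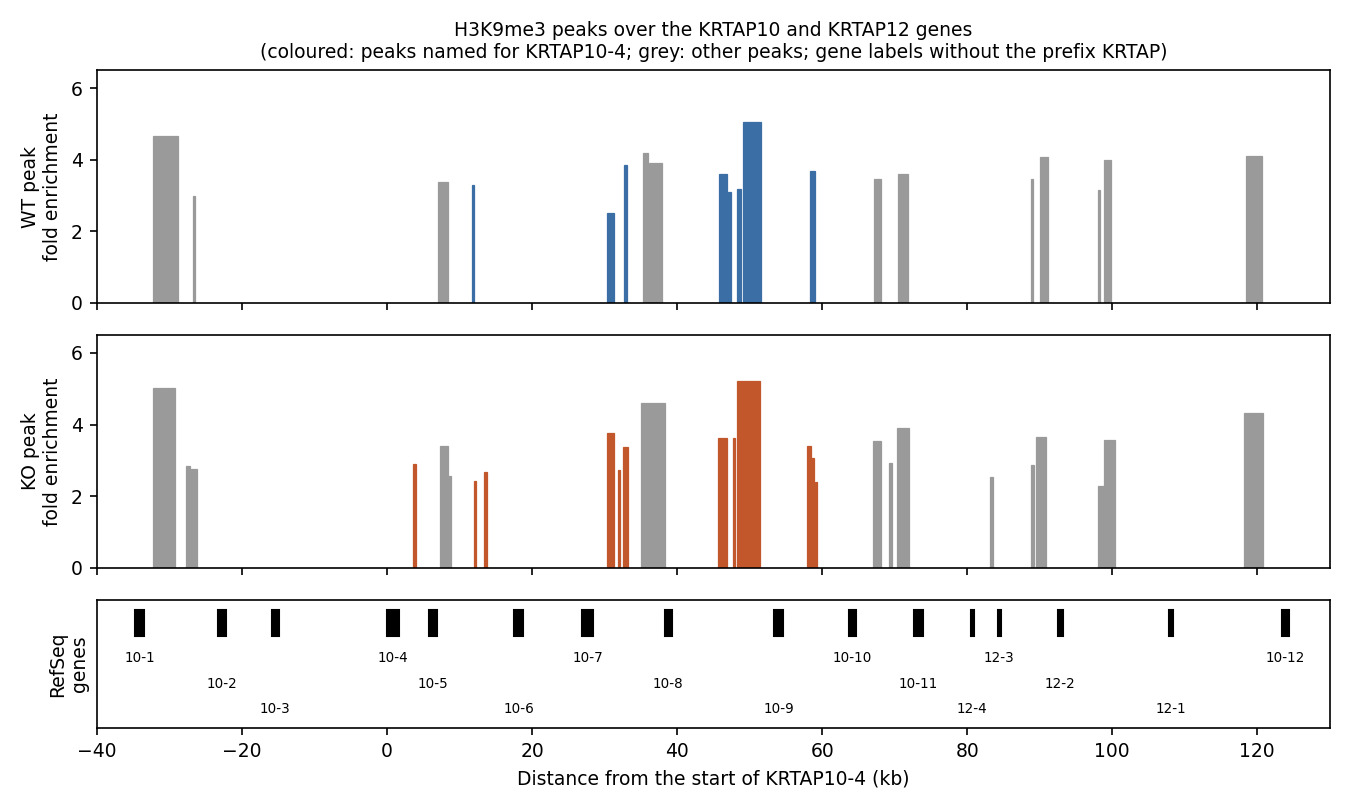
Peaks of the WT list (top) and the KO list (middle) and the 16 KRTAP10 and KRTAP12 genes (bottom), by distance in kb from the start of KRTAP10-4 along the plus strand. The width of each bar is that of the peak and its height is the authors' fold enrichment. Peaks named for KRTAP10-4 (8 and 12) are coloured, other peaks are grey, and no peak stands over a gene box.

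Several other genes of the block had peaks next to their starts. KRTAP10-1 had 1 peak in each list, 3384 bp with a fold of 4.67 in WT and 2997 bp with a fold of 5.01 in KO, and these lay 1281 and 1244 bp upstream of the gene. KRTAP10-8 had 2 WT peaks (2425 bases together) and 1 KO peak of 3321 bp that spanned both, and the nearest ended 492 bp from the gene in WT and 70 bp in KO. KRTAP10-5 had 1 WT and 2 KO peaks with 1427 and 1563 bases, the nearest 134 and 349 bp upstream. KRTAP10-11 had 1 in each, 862 and 727 bp upstream, with 1372 and 1661 bases. KRTAP12-3, of another high-sulfur subfamily, had no WT peak and 1 KO peak of 385 bp with a fold of 2.52. The host gene name TSPEAR was given to 7 WT and 9 KO peaks, among them the pair nearest to KRTAP10-12, which lay 2750 and 2702 bp upstream of it.

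A peak within 5 kb was found for 11 of the 16 genes in WT and 14 in KO, against 24.2% and 28.1% of all protein-coding genes. The nearest peak was upstream of the gene for 6 of the 11 and 8 of the 14, and downstream for 5 and 6. At KRTAP10-7, for example, it began 1930 bp beyond the end of the gene in WT and 1907 bp in KO. The peaks therefore lay on both sides of the genes. KRTAP10-3 was farthest from a peak, at 10604 bp in WT and 10245 bp in KO.

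Within 300 kb of the KRTAP10-4 peaks, 33 WT and 39 KO peaks were called, a ratio of 1.18 (95% interval 0.746 to 1.87, counting error only). The ratio was 3.52 (3.22 to 3.84) on chromosome 21 as a whole, 1.68 (1.51 to 1.86) on that chromosome outside 18 to 26 Mb, bounds set after seeing the data, and 1.39 over all peaks. The cluster thus lay below the whole chromosome, and its interval takes in the value over all peaks. Of the 33 WT peaks 32 met a KO peak (97.0%, 84.7 to 99.5), against 79.9% of all WT peaks on chromosomes. Of the 39 KO peaks 29 met a WT peak (74.4%, 58.9 to 85.4), against 50.6% of all KO peaks. In lists of equal length the ratio was 0.848. Outside the KRTAP block the cluster held 4 WT and 5 KO peaks named for TRPM2, a cation channel gene, 3 in each list at the noncoding LINC02575 and AP001065.2, and 6 WT and 4 KO peaks without a gene, from 44821727 to 44830260.

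KRTAP4-6, of the ultra-high-sulfur type, had no WT peak and 5 KO peaks. Of all 20037 protein-coding genes, 0.140% had at least 5 KO peaks and no WT peak by name, bounds that equal the counts of KRTAP4-6 itself. Among the 1010 genes no longer than the longest KRTAP gene (1643 bp), KRTAP4-6 was the only one (0.0990%). The gene (ENSG00000198090, transcript ENST00000345847) is on the minus strand of chromosome 17 from 41139433 to 41140544 (RefSeq), and its annotated transcript starts at 41140487. The KO peaks were 301 to 568 bp wide and covered 1929 bases. The peak of highest fold, 4.67 with a q-value of 5.2e-13, ran from 41140588 to 41141155, just upstream of the RefSeq start. Inside the gene, a peak from 41140223 to 41140523 had a fold of 3.78 and a peak from 41139744 to 41140110 had a fold of 3.01. Farther upstream, peaks from 41141417 to 41141767 and from 41142200 to 41142541 had folds of 3.59 and 3.43. The other named peaks, on both sides of the one just upstream of the start, had lower folds. Together the peaks inside the gene covered 668 of its 1112 bases, or 60.1%.

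A sixth KO peak without a gene name, from 41143598 to 41144117 with a fold of 3.90, extended the run, which spanned 4374 bp with gaps of 64 to 1056 bp. These 6 were the only KO peaks within 300 kb, and WT had none there. The next KO peaks were 334 and 461 kb away, and the next WT peaks 375 and 308 kb away. All 34 KRTAP genes of chromosome 17 lie in that window, and KRTAP4-6 was the only one with a peak. In the KO list, 941 runs held at least 6 peaks with no more than 3 kb between neighbours, a rule set after seeing this run. Of these, 115 had no WT peak inside and 12, this run among them, had none within 300 kb. Read depth and the calling threshold are unknown here, and their part in the absence of WT peaks was not tested. With a fold of at least 3.69, 2 of the 5 KO peaks were left. KRTAP4 genes resemble one another, and the placing of reads that match several of them is not given in the sources used here.

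Of the 80 KRTAP promoter sequences held, 4 are shown because an edge of a peak fell inside them. Each is the stretch of 250 bases before the RefSeq start (GRCh38.p14), read 5′ to 3′ along the gene, with capitals for bases under a peak. KRTAP4-6 is at chr17:41140545-41140794 (minus strand, KO peaks in capitals), KRTAP10-8 at chr21:44611829-44612078 (plus strand, KO), KRTAP10-5 at chr21:44580605-44580854 (minus strand, WT) and KRTAP7-1 at chr21:30829760-30830009 (minus strand, WT).
KRTAP4-6: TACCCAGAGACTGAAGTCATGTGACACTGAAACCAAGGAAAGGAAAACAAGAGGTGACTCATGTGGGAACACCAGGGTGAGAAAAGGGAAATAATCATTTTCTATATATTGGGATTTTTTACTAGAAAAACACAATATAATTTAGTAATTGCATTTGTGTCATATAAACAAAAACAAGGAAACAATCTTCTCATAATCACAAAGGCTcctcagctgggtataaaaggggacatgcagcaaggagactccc
KRTAP10-8: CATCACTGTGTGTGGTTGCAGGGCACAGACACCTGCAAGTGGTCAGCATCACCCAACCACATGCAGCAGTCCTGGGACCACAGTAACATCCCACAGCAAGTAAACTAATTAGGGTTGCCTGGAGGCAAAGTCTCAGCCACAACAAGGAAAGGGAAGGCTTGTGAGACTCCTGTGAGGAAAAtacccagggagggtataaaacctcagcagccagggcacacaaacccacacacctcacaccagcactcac
KRTAP10-5: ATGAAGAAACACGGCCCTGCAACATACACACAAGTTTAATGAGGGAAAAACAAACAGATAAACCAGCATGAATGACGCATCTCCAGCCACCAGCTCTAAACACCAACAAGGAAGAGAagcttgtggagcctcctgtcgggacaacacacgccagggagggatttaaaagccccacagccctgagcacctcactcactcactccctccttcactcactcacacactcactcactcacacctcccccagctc
KRTAP7-1: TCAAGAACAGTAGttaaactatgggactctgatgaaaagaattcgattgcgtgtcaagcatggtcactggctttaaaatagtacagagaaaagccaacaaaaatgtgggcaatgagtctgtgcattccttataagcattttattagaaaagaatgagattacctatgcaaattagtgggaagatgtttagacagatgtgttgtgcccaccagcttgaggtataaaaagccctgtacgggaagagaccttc

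KO peaks covered 207 of the 250 bases at KRTAP4-6 and 181 at KRTAP10-8, and no WT peak reached either. At KRTAP10-5 and KRTAP7-1 it was a WT peak that reached in, over 117 and 13 bases, and no KO peak did. In each of the 4 the bases just before the RefSeq start were outside the peak. At KRTAP4-6 another KO peak, from 41140223 to 41140523, covered the annotated transcript start at 41140487. Such overlap was rare, at 2 of 80 KRTAP promoters in each list, and at 0.107% of 15843 protein-coding promoters in WT and 0.353% in KO. The letters TATAAA were searched on both strands. They begin 32 bases before the start of KRTAP4-6, 56 bases before that of KRTAP10-8 and 31 bases before that of KRTAP7-1, each time in the lower-case part, and KRTAP4-6 holds them once more 88 bases before, under the peak. KRTAP10-5 does not hold them. They were found in 63 of 80 KRTAP promoters (78.8%) and in 9.23% of all protein-coding promoters of this length. The median GC content was 40.6% for KRTAP and 62.4% for all, and KRTAP4-6 stood at 37.6%.

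KRTAP19-2, of the high-glycine-tyrosine type, had 1 peak in each list and was the only one of the 3 genes with fewer KO than WT bases. The gene (ENSG00000186965) is on the minus strand of chromosome 21 from 30487043 to 30487436. The WT peak ran from 30484835 to 30487504, 2670 bp wide with a fold of 5.08 and a q-value of 1.1e-13, at percentile 91.6 of the WT list. It covered all 394 bases of the gene, its start, and the sequence beyond its end. The KO peak ran from 30485798 to 30486948, 1151 bp wide with a fold of 3.93 and a q-value of 3.0e-11, at percentile 66.7 of the KO list. It lay inside the WT peak, downstream of the gene, and stopped 95 bp short of it.

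A second KO peak of 420 bp, from 30485295 to 30485714 with a fold of 4.13, was also inside the WT peak but carried no gene name. Both KO peaks together met 1571 of the 2670 WT bases. By named peaks, 3886 protein-coding genes had bases in both lists (19.4% of all), with a median ratio of KO to WT bases of 1.39. At KRTAP19-2 this ratio was 0.431, which leaves out the second KO peak. A ratio at or below 0.431 was found for 86 genes (2.21%), and no rank that counts the second peak was made. A whole RefSeq body under WT peaks is what was seen at KRTAP19-2 itself, so this criterion comes from the member. Of all protein-coding genes, 1 met it (0.00499%), and that was KRTAP19-2. It is a short gene, which bears on that count, and among the 1010 short genes it was 0.0990%. The authors' annotation classed both named peaks as "Promoter3k", a class it gave to peaks on either side of a start. Their centres lay 1267 bp (WT) and 1063 bp (KO) past the start, beyond the end of the gene.

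**Figure D2:**
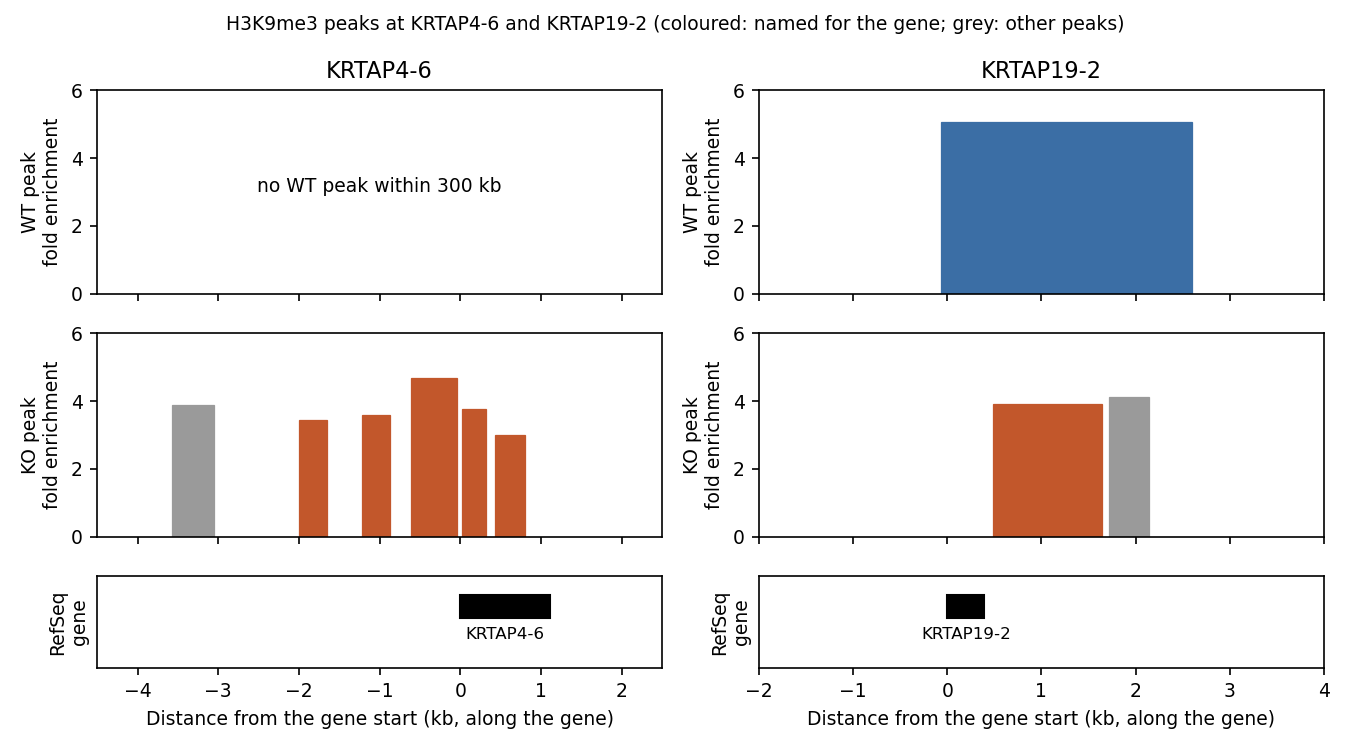
WT (top) and KO (middle) peaks at KRTAP4-6 (left) and KRTAP19-2 (right), by distance in kb from the RefSeq start, with positive values running into the gene (black box, bottom). Bar width is peak width and bar height the authors' fold enrichment. KRTAP4-6 has 5 named KO peaks (coloured) and 1 without a name (grey), and at KRTAP19-2 the WT peak of 2670 bp covers the gene while the KO peaks start 95 bp past its end.

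The cluster within 300 kb of KRTAP19-2 held fewer peaks than that around KRTAP10-4, which had 33 in WT and 39 in KO. Over the wider KRTAP19 block of 757 kb, peaks covered 1.19% of the bases in WT and 0.853% in KO. All protein-coding gene bodies together stood at 1.02% and 1.51%. The KRTAP19-2 cluster held 29 KRTAP genes and 7 WT peaks over 6347 bases against 8 KO peaks over 3611 bases. The ratio of peaks was 1.14 (0.431 to 3.03) and that of bases 0.569, so KO had about as many peaks and fewer bases. The median width was 554 bp in WT and 328 bp in KO, beside 483 and 530 bp over all peaks. In lists of equal length the ratio of peaks was 0.714. Of the WT peaks 4 met a KO peak (57.1%, 25.0 to 84.2), and of the KO peaks 5 met a WT peak (62.5%, 30.6 to 86.3). Apart from the KRTAP19-2 peaks, all were intergenic, 6 in WT and 7 in KO. The strongest was a shared one from 30415789 to 30416853 in WT (fold 5.27) and from 30415943 to 30416493 in KO (fold 5.05), near KRTAP13-3. The nearest subfamily members, KRTAP19-1 and KRTAP19-3, were 4468 and 3958 bp from the WT peak and had no peak of their own.

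KRTAP7-1, another gene of the high-glycine-tyrosine type farther along the same block, had 2 WT and 3 KO peaks, with 1814 and 1767 bases. The WT peaks lay upstream, from 238 bp before the start. The KO list had a peak from 30829235 to 30829509 over 275 bases of the gene, which no WT peak touched. So KO peaks lay over the body of KRTAP7-1 and not over that of KRTAP19-2, and WT peaks the reverse.

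Across the family, 7 of 94 KRTAP genes had a WT peak by name (7.45%, 3.65 to 14.6) and 9 had a KO peak (9.57%, 5.12 to 17.2). The shares over all protein-coding genes were 20.6% and 23.4%, and those over the 1010 short genes were 1.98% and 2.67%, a class in which KRTAP genes make up 7 of 20 and 9 of 27 genes with a peak. More KO than WT bases were found at 6 of the 94 genes (19.2% of all protein-coding genes) and fewer at 3 (5.52%), KRTAP10-1, KRTAP19-2 and KRTAP7-1, and the median difference over the 94 was 0, as it was over all protein-coding genes. KO peaks without a WT peak by name were found at KRTAP4-6 and KRTAP12-3, against 4.04% of all protein-coding and 0.990% of short genes. Peaks over a gene body were found at 1 gene in WT, KRTAP19-2, and at 2 in KO, KRTAP4-6 and KRTAP7-1. Over all protein-coding genes 20.9% and 23.7% had one, and over short genes 0.594% and 1.58%. None of the 3 had a peak over its body in both lists, and 1.17% of all protein-coding genes had one in WT alone and 3.95% in KO alone. Within 3 kb of the body, a peak was found for 11 genes in WT (11.7%) and for 17 in KO (18.1%), against 22.6% and 26.0% of all protein-coding genes and 3.96% and 6.34% of short genes.

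The blocks of the family differed in how near their genes were to the mark. In the KRTAP10 and KRTAP12 block the median gap from a gene to the nearest peak was 2607 bp in WT and 1964 bp in KO. It was 21085 and 14709 bp for the 33 genes of the KRTAP19 block (757 kb). For the 34 genes on chromosome 17, KRTAP4-6 among them, it was 267946 and 86423 bp. The 11 ultra-high-sulfur KRTAP5 genes on chromosome 11 stood at 165007 and 120882 bp and had no peak by name or within 3 kb in either list. They do not form a single cluster, as they lie from 1584342 to 71582875. Their gaps ran from 16871 to 277860 bp in WT and from 16830 to 196499 bp in KO. Over all protein-coding genes the median gap was 48635 bp in WT and 32400 bp in KO. The 6 KO peaks of the run at KRTAP4-6 were the only peaks in the chromosome 17 block.

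**Figure D3:**
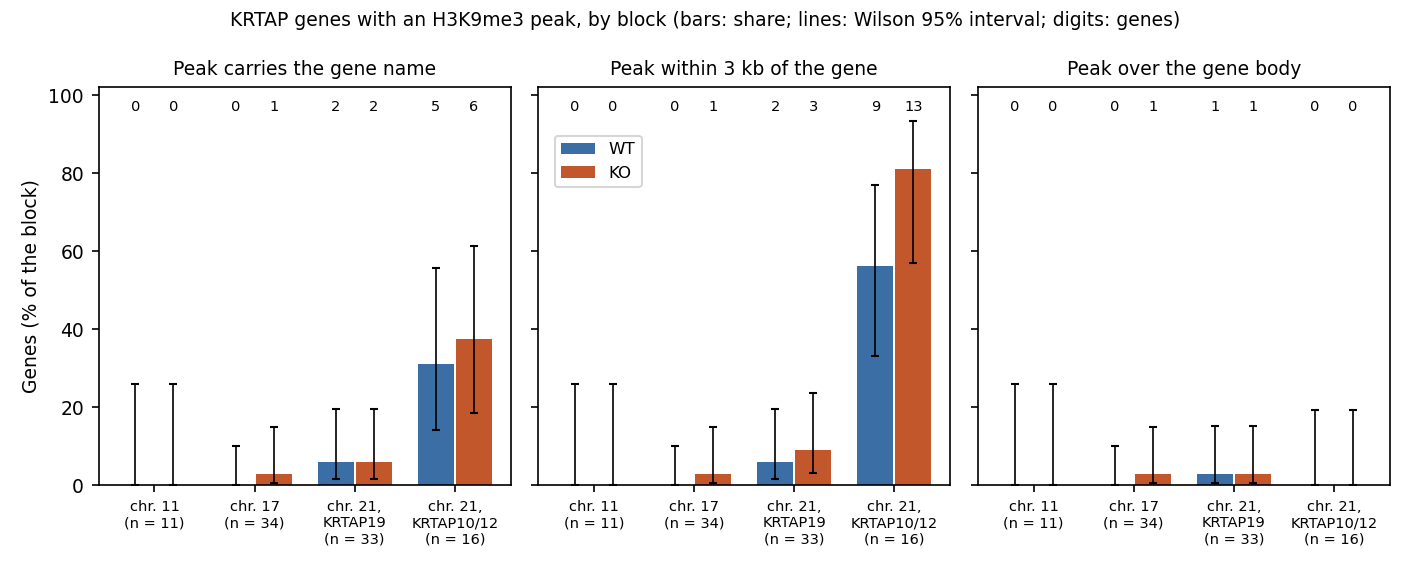
Share of the KRTAP genes of each block (percent) with a peak that carries the gene name, a peak within 3 kb of the gene body, or a peak over the body, in WT and KO. Lines are Wilson 95% intervals and the digits count genes. The KRTAP10 and KRTAP12 block has 9 (WT) and 13 (KO) of 16 genes within 3 kb of a peak and 0 under one.

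**Figure D4:**
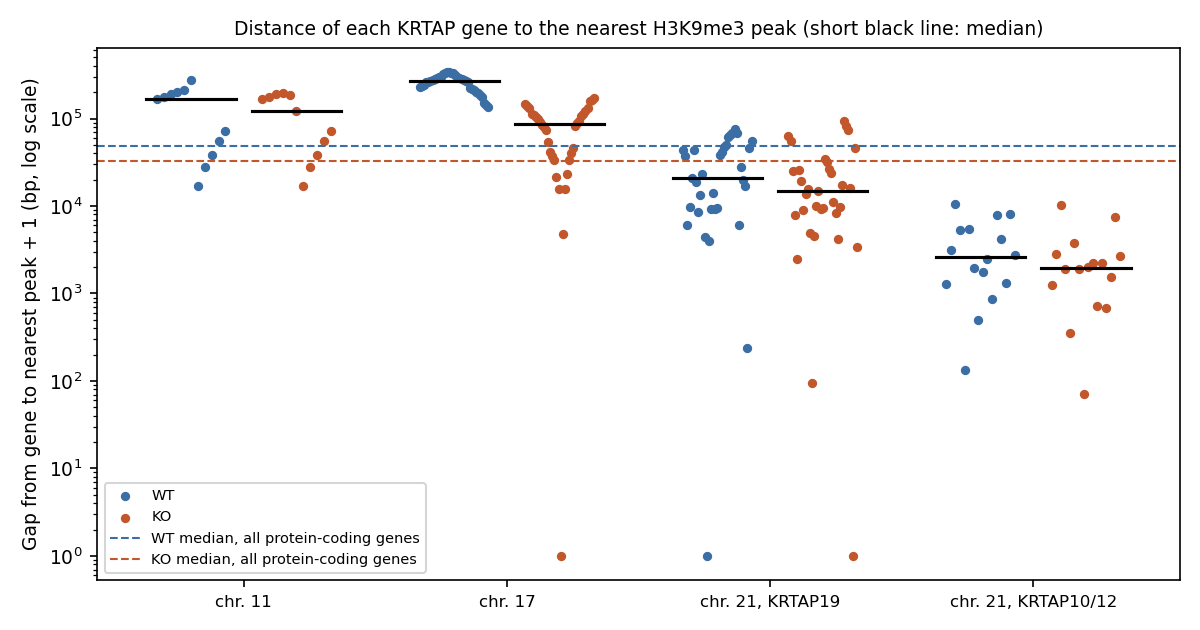
Gap in bp (plus 1, log scale) from each KRTAP gene to the nearest peak in WT and KO, by block, with block medians (black lines) and the medians over all protein-coding genes (dashed lines). The points of the KRTAP10 and KRTAP12 block all lie below the dashed lines, and those of chromosome 17 in WT all lie above.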

How the data were processed

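The authors deposited 1 annotated peak list per genotype. Each peak has a fold enrichment (a ratio) and a q-value, both made by the authors and not defined further in the file headers. The submitters' processing notes name HISAT2 and hg38. The peak caller, the use of input, read depth and the way the 3 replicates were combined: each is not given in the sources used here, so no interval covers the variation between cultures. Positions were read as counted from 1. Peaks were shared where they overlapped by at least 1 bp, and a cluster was all peaks within 300 kb of a member's peaks. Gene bodies and promoters came from RefSeq (GRCh38.p14). Of 5037 protein-coding names in the lists, 4958 matched (98.4%, 140 through an older symbol), and all 9 KRTAP names did. Promoters were held for 80 of 94 KRTAP genes. Intervals are Wilson 95% intervals, for ratios through the KO share, and treat peaks as independent. The overlap and interval functions were tested on simulated data. Python 3.11.15, pandas 2.3.3 and NumPy 2.4.6 were used.

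The members, gene lists and alternatives were chosen with earlier results of these data known. Genes named are the 3 members, other KRTAP genes with a peak, genes named for a peak in the clusters, and genes of the keratin and epidermal lists with a peak. KRTAP10-3, KRTAP10-7, KRTAP10-9, KRTAP10-12, KRTAP13-3, KRTAP19-1 and KRTAP19-3 were named as neighbours after their values were seen.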

Additional observations from a re-analysis of the deposited data

How the results depend on the processing

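No paired analysis was possible because there is 1 list per genotype and no column belongs to a library, and for the same reason no value exists without a replicate. Of 78 alternative values, 44 stayed within 1.5 times the reported count or difference, or within the 95% interval of the reported ratio or share. Another 29 moved outside these bounds. The remaining 5 were ratios that turned from above 1 to below 1, each still within the 95% interval of the reported ratio. The cause was not tested.

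Keeping peaks with a fold of at least 3.69, the median of both lists, left 2 WT and 2 KO peaks at KRTAP10-4, with 1001 more KO bases, and 2 KO peaks (869 bases) at KRTAP4-6, with 3 in its cluster, and turned the ratio to 0.846 around KRTAP10-4 and 0.667 around KRTAP19-2. Keeping q-values at or below the median of both lists (1.7e-07) left 3 WT and 8 KO peaks, with 3288 more KO bases, at KRTAP10-4, and 2 KO peaks (869 bases) at KRTAP4-6, with 3 in its cluster. It gave a ratio of 1.00 around KRTAP19-2. In lists of equal length KRTAP10-4 had 8 WT and 8 KO peaks, with 536 more KO bases, and the ratios were 0.848 and 0.714. Counting covered bases turned the KRTAP19-2 ratio to 0.569. Counting peaks over RefSeq bodies gave 0 and 0 at KRTAP10-4 (difference 0), 2 KO peaks with 668 bases at KRTAP4-6, and no KO peak (0) with a KO minus WT difference of -394 bases at KRTAP19-2. It gave 1 KRTAP gene in WT and 2 in KO, and bodies with 3 kb to each side gave 11 and 17. Within 1 Mb of KRTAP4-6 there were 10 WT and 26 KO peaks. Around KRTAP10-4, sharing by at least 50% of both peaks held for 63.6% (WT) and 53.8% (KO), and having a peak within 1 kb for 100% and 92.3%. No ratio was formed at KRTAP4-6, where WT had 0 peaks.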

Other observations

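Hair keratins, the filament partners of keratin-associated proteins, had no peak by name or over the gene body at any of 17 genes in either list. Over all protein-coding genes 20.6% had a WT and 23.4% a KO peak by name. Of 37 epithelial keratins none had a WT peak by name or over the gene body. A KO peak by name was found at 2 (5.41%), beside the same 20.6% and 23.4% of all protein-coding genes. The 2 were KRT25 with 362 bases, all over the gene body, and KRT26 with 345 bases, none over the gene body. Both are keratins of the inner root sheath of the hair follicle. They lie on chromosome 17 from 40748021 to 40772201, outside the 300 kb window around KRTAP4-6. A WT peak without a gene name, from 40764018 to 40764773 with a fold of 3.77, lay between KRT25 and KRT26. The absence of WT peaks at KRT26 therefore holds by name and body only.

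Of 38 epidermal differentiation genes 2 had a WT and 2 a KO peak by name (5.26% each). The shares were 20.6% and 23.4% over all protein-coding genes, and 1.98% and 2.67% over the genes no longer than 1643 bp. Gene length was not matched here or for the keratins above, so none of these shares was read as low or high. TCHH, which encodes trichohyalin of the inner root sheath and the medulla of the hair, had 2 peaks in each list, over 606 bases in WT and 4260 in KO, all inside the gene. LCE3E, a late cornified envelope gene, had 0 and 1 peaks (423 bases), and SPRR2E, a small proline-rich protein gene, had 1 (312 bases) and 0. SPRR2G had no peak by name, but peaks lay over 1442 bases of its gene body in WT and 1517 in KO. The median difference of bases was 0 in each of these lists.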
